A study of Mus musculus with 13 samples.

Results

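The semaphorins, ephrins, Slits and netrins are ligands first known for steering growing axons, and the plexins, Eph kinases, Robo and Unc5 proteins are their receptors. Genes of these families were taken by symbol from a table of 54513 genes: 70 symbols matched, and the 63 with a raw count above 130 over all 13 libraries are described here. The symbol rule itself did not use any difference between groups, but the members were chosen with earlier results of these data known. The 63 comprise 20 semaphorins, 9 plexins, 8 ephrins, 11 Eph receptors, 3 Slits, 3 Robo receptors, 3 netrins, 4 Unc5 receptors, the antisense RNA Plxna4os1 and Unc5cl, an Unc5-like protein that is no netrin receptor. Unc5cl was the least counted member (131 counts), and Robo3 and Ntn5 were just outside (39 counts each), followed by Epha10 (25), Plxna4os2 (22), Epha8 (12), Plxna4os3 (8) and Epha6 (1).

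The lungs came from male C57Bl/6 mice, 7 to 8 weeks old, at day 21 after bleomycin, a DNA-damaging drug that injures the alveoli and is used to model lung fibrosis, or after saline. Total RNA of formalin-fixed, paraffin-embedded sections, 10 µm thick, was sequenced from 8 ng per library. The bleomycin libraries form 2 sets by their batch label, batch 1 (replicates 5 to 8) and batch 2 (replicates 1 to 4). All 5 saline libraries carry the batch 1 label, so treatment is compared within batch 1 (4 bleomycin against 5 saline libraries), and in batch 2 treatment and batch cannot be told apart. Nothing in the labels ties each library to its own animal, so p-values measure the spread between these libraries only. Library names number the bleomycin and saline libraries of batch 1 in separate runs, and a difference between such runs cannot be told apart from treatment. Values below are listed in the order of replicates 5, 6, 7 and 8 for batch 1 bleomycin, 1 to 4 for batch 2 bleomycin and 1 to 5 for saline.

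Each batch 1 bleomycin library held 21727502 to 28885129 counts, each batch 2 bleomycin library 6337147 to 12982422 and each saline library 9527580 to 26043735. Bleomycin replicate 8 has a title that calls it a control, while its treatment label and library name say bleomycin. Its level of the collagen gene Col1a1 was 3982 CPM (counts scaled by TMM-normalized library size), against 928 to 3147 CPM in the other batch 1 bleomycin and 215 to 324 CPM in saline lungs, and it was kept as bleomycin. With it moved to saline, 3 of the 63 members passed in batch 1 (Sema4c and Sema4d higher, Robo1 lower), where 29 passed as labelled. Without it, 14 members rose and 16 fell.

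In axon guidance a ligand on a cell or in the matrix makes the cell that meets it turn away, attach or change shape, through the actin cytoskeleton. Class 3 semaphorins are secreted and act through neuropilins with plexins. Semaphorins of classes 4 to 6 span the membrane, and Sema7a is held by a lipid anchor. Ephrins sit on one cell and Eph kinases on its neighbour, ephrin-B proteins crossing the membrane and ephrin-A proteins being lipid-anchored. Outside the nervous system the same proteins shape blood vessels, epithelium and immune responses, and several are known from lung capillaries.

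Of the 63 members, all of which passed the filter on low counts, 14 rose and 15 fell in batch 1 bleomycin against saline lungs. These 29 are 46.0% of the members, beside 30.9% of all 20468 tested genes (17.5% higher and 13.4% lower). The members are better measured than most genes. Among those with a mean of at least 5 CPM, 25 of 48 passed (52.1%), beside 37.0% of all such genes. Since the members were chosen with earlier results known, these shares are a description only. Adjusted p-values here and below are from edgeR's quasi-likelihood test with Benjamini-Hochberg adjustment over all tested genes, called under 0.05, and changes are log2 of bleomycin over saline. The median change of the members was 0.09, beside 0.03 for all tested genes, and 11 of the 29 changed at least 2-fold. The batch 1 bleomycin and saline values did not overlap in 11 members that lay above saline and 11 that lay below, while 14.0% and 11.3% of all tested genes did so. In bulk lung, fewer cells of a type and less RNA per cell cannot be told apart. In the same libraries 6 of 12 capillary endothelial markers fell and 2 rose, 10 of 12 macrophage markers rose and 7 of 10 lymphocyte markers rose, and the part of these cells in the changes of guidance genes was not tested.

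**Figure D1:**
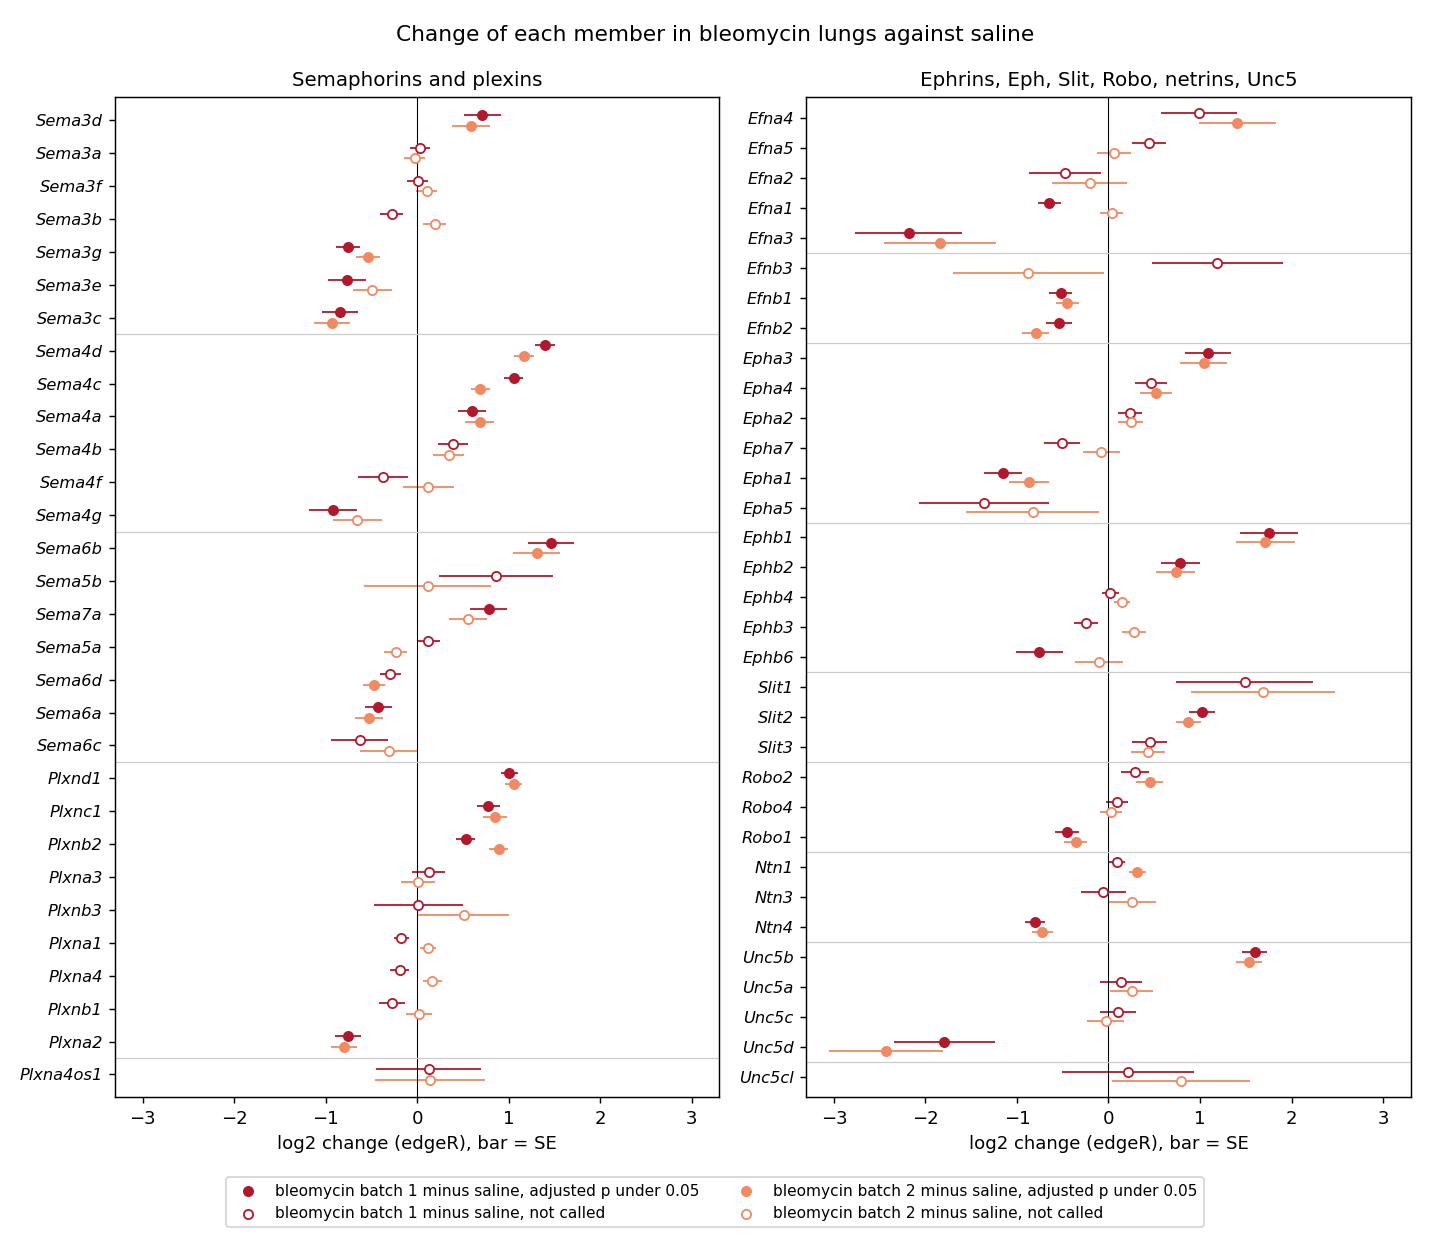
Log2 change of each of the 63 members in bleomycin against saline lungs, from edgeR, with the SE as a bar. Dark points are batch 1 and light points batch 2, filled where the adjusted p was under 0.05. In batch 1, 14 members lie to the right with filled points and 15 to the left.

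Levels were compared between genes after division by exon length, merged over all annotated transcripts of a gene. Which transcripts the lung uses was not examined, so ranks between genes are approximate. In saline lungs Sema3c was the highest member at 55.2 CPM per kilobase, followed by Plxna1 (34.9) and Ntn4 (33.0). In batch 1 bleomycin lungs Plxnb2 came first at 36.6 CPM per kilobase, before Plxna1 (30.9) and Sema3c (30.6). The same 3 genes led in batch 2 bleomycin lungs, with 46.9, 37.8 and 28.9 CPM per kilobase. At the low end, Slit1 and Sema5b had 0.0667 and 0.0739 CPM per kilobase in saline lungs, and Epha5 had 0.0475 in batch 1 bleomycin lungs.

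**Figure D2:**
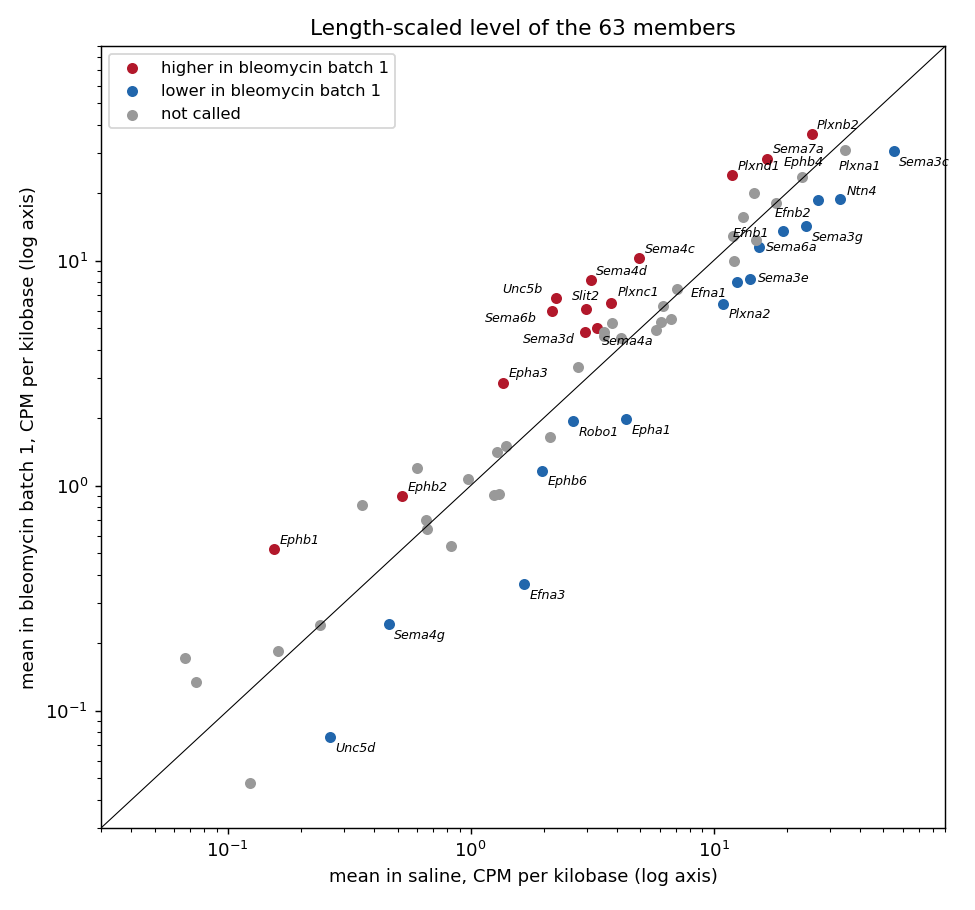
Mean level of the 63 members in batch 1 bleomycin (vertical) against saline lungs (horizontal), in CPM per kilobase of exon, both on log axes. The line marks equal levels. Plxnb2 lies above the line at the top (36.6 against 25.3) and Sema3c below it (30.6 against 55.2).

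Because 14 members rose and 15 fell, their promoters were searched for short motifs, in windows from 250 bases before to 50 bases after each RefSeq start (GRCm38.p6). In all, 53 of the 63 members matched, with 69 windows. The AP-1 motif TGANTCA was found in 3 of 22 windows of members that rose (Sema4c, Sema4d and Sema6b). It was found in 0 of 15 windows of members that fell, in 0 of 32 of members that were not called and in 7.81% of all 32851 windows. The GC box GGGCGG was found in 15, 13 and 20 of these windows (68.2%, 86.7% and 62.5%), beside 35.7% of all windows. Both strands were searched, and a match of letters is a description and no evidence of binding. Ntn4 and Sema3c, which fell, hold 4 and 3 GC boxes. Windows of members that rose or were not called hold as many or more, such as Plxnc1 (4, higher) and Slit3 (6, not called). The 3 windows with AP-1 and the windows of Ntn4 and Sema3c are printed in the direction of the gene with both motifs in capitals.
Sema4d, chr13:51748761-51749060, minus strand: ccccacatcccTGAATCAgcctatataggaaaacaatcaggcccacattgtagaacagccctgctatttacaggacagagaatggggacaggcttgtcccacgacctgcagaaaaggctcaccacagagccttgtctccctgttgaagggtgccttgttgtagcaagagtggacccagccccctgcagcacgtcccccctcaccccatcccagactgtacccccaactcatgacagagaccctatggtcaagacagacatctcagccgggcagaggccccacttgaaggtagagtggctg
Sema4c, chr1:36558332-36558631, minus strand: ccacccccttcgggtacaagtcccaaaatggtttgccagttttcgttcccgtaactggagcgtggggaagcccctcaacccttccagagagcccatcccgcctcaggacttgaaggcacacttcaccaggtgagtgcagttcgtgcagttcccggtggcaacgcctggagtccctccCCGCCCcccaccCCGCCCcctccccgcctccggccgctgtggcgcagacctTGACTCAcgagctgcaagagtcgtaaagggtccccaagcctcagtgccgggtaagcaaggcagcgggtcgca
Sema6b, chr17:56133803-56134102, minus strand: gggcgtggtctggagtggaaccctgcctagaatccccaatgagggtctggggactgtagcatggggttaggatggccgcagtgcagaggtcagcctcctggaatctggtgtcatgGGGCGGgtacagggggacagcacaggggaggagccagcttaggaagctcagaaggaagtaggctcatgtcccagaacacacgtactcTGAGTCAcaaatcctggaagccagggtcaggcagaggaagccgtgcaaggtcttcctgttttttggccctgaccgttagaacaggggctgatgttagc
Ntn4, chr10:93640799-93641098, plus strand: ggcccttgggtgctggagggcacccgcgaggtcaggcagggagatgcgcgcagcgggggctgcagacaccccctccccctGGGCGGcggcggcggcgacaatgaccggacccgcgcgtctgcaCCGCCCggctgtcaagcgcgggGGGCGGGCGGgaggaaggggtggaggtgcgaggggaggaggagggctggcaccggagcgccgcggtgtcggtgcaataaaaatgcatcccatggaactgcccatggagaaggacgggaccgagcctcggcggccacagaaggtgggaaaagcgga
Sema3c, chr5:17574566-17574865, plus strand: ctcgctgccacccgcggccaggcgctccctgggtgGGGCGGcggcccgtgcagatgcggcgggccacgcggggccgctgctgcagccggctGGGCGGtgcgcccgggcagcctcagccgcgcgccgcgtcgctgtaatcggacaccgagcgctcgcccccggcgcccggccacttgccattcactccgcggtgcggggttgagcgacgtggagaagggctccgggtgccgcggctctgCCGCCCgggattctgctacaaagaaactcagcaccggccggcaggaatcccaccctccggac
The bases just after the RefSeq start were found in a GENCODE M21 transcript of the gene for Sema4d, Ntn4 and Sema3c, and in none for the windows printed for Sema4c and Sema6b. Sema4d has 3 windows and both other AP-1 genes have 2, and the motif is in 1 window of each. The other 6 motifs gave these shares of windows for members that rose, members that fell, members not called and all windows, in that order. The E-box CACGTG was in 0%, 6.67%, 9.38% and 7.15%. The TATA box TATAAA was in 4.55%, 6.67%, 0% and 13.6%. The TEAD motif GGAATG was in 13.6%, 13.3%, 12.5% and 14.7%. The STAT motif TTCNNNGAA was in 4.55%, 13.3%, 0% and 8.30%. The ETS motif CCGGAA was in 18.2%, 6.67%, 6.25% and 14.9%. The hypoxia response motif ACGTG, which lies within the E-box, was in 9.09%, 26.7%, 18.8% and 19.6%. The member windows were GC-rich, with a median GC content of 64.3% beside 52.7% for all windows and a median of 19 CpG sites beside 7.

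Among the class 3 semaphorins, the secreted ligands, Sema3c, Sema3e and Sema3g fell and Sema3d rose. Sema3c, which signals through neuropilins and plexins in vessel and heart development, had 325, 163, 240.5 and 147 CPM in batch 1 bleomycin lungs, 173, 203, 229 and 222 CPM in batch 2 bleomycin lungs and 361, 434, 428, 408 and 339 CPM in saline lungs. Every bleomycin library was below every saline library, replicate 5 being the closest to them, and the fit gave log2 change -0.85, SE 0.20, adjusted p = 0.00498. In batch 2 the change against saline was -0.93 (SE 0.20, adjusted p = 0.00312). Sema3g, a ligand of arterial endothelium that uses neuropilin 2, had 80.5, 46.5, 75.7 and 55.1 CPM in batch 1 bleomycin lungs, 79.7, 75.9, 73.6 and 71.2 CPM in batch 2 bleomycin lungs and 109, 112, 116, 95.5 and 114 CPM in saline lungs. These groups did not overlap either (log2 change -0.76, SE 0.13, adjusted p = 0.000533), and in batch 2 the change was -0.54 (SE 0.13, adjusted p = 0.00673). Sema3e, which binds plexin D1 without a neuropilin, had 113, 57.9, 89.0 and 48.8 CPM in batch 1 bleomycin lungs, 78.5, 91.9, 111 and 92.7 CPM in batch 2 bleomycin lungs and 128, 137, 158, 120.2 and 115 CPM in saline lungs. Batch 1 bleomycin lungs were all below saline, by little in replicate 5 (log2 change -0.77, SE 0.21, adjusted p = 0.0136). In batch 2 the change of Sema3e was -0.49 (SE 0.21, adjusted p = 0.0981), short of the threshold.

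Sema3d had 24.5, 49.3, 36.5 and 55.0 CPM in batch 1 bleomycin lungs, 52.0, 34.5, 30.5 and 35.4 CPM in batch 2 bleomycin lungs and 24.0, 30.4, 23.6, 23.1 and 25.4 CPM in saline lungs. Replicate 5 lay among the saline values and the other bleomycin libraries above them (log2 change 0.71, SE 0.20, adjusted p = 0.0159). The Sema3d call did not hold without bleomycin replicate 6 (0.0558) or bleomycin replicate 8 (0.0786), adjusted p in brackets. The 3 others were not called: Sema3a, the axon-collapsing founder of the class, averaged 87.5 ± 12.0 CPM in batch 1 bleomycin and 85.6 ± 10.8 CPM in saline lungs (SD, n = 4 and 5, as in all means here). Sema3f, a ligand of neuropilin 2, averaged 94.1 ± 12.1 CPM in batch 1 bleomycin and 93.8 ± 11.3 CPM in saline lungs. Sema3b averaged 26.4 ± 3.94 CPM in batch 1 bleomycin and 32.0 ± 3.09 CPM in saline lungs, with an adjusted p of 0.102.

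Among the 6 class 4 semaphorins, membrane proteins with many roles in immune cells, Sema4a, Sema4c and Sema4d rose and Sema4g fell. Sema4d, or CD100, is shed from lymphocytes and other cells and binds plexins B1 and B2 and CD72. It had 54.5, 69.7, 68.9 and 58.6 CPM in batch 1 bleomycin lungs, 50.0, 53.0, 54.7 and 57.1 CPM in batch 2 bleomycin lungs and 26.8, 20.3, 25.8, 25.2 and 21.6 CPM in saline lungs. Both bleomycin sets stood well above saline, with no overlap, and Sema4d had the lowest adjusted p of all members (log2 change 1.39, SE 0.11, adjusted p = 7.78e-07; batch 2 log2 change 1.16, SE 0.11, adjusted p = 3.54e-06). Sema4c, a ligand of plexin B2, had 48.0, 50.2, 48.6 and 41.2 CPM in batch 1 bleomycin lungs, 38.0, 35.1, 34.0 and 39.2 CPM in batch 2 bleomycin lungs and 26.1, 20.6, 21.9, 21.8 and 22.9 CPM in saline lungs. Its groups did not overlap (log2 change 1.05, SE 0.10, adjusted p = 3.05e-06), and the batch 2 values lay between the others, at a change of 0.69 (SE 0.10, adjusted p = 0.000167). The strand setting of the counting is not given in the sources used here, so reads of a gene and of an antisense partner may not be separated. The gene D430040D24Rik overlaps 7.27% of the exon length of Sema4c on the opposite strand, and it averaged 3.56 ± 1.09 CPM in batch 1 bleomycin and 2.31 ± 0.85 CPM in saline lungs.

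Sema4a, a costimulator of T cells, had 27.4, 27.5, 29.2 and 24.2 CPM in batch 1 bleomycin lungs, 23.9, 31.2, 26.6 and 32.7 CPM in batch 2 bleomycin lungs and 16.7, 13.1, 15.5, 21.8 and 22.1 CPM in saline lungs. The batch 1 groups were separated by a narrow gap (log2 change 0.60, SE 0.15, adjusted p = 0.00754). Sema4g, at a low level, averaged 2.09 ± 0.161 CPM in batch 1 bleomycin, 2.499 ± 0.508 CPM in batch 2 bleomycin and 3.98 ± 0.759 CPM in saline lungs (log2 change -0.92, SE 0.26, adjusted p = 0.0139). Its groups did not overlap in batch 1, and the call was lost with no filter on low counts (adjusted p = 0.0815). In batch 2 the change of Sema4g was -0.66 (SE 0.27, adjusted p = 0.080), short of the threshold. Sema4b averaged 26.1 ± 6.55 CPM in batch 1 bleomycin and 19.9 ± 2.699 CPM in saline lungs. Its highest batch 1 value was in replicate 8 (35.4 CPM), with 20.3, 25.6 and 23.3 CPM in replicates 5 to 7. Sema4b was not called (adjusted p = 0.0831), but it passed without bleomycin replicate 5 (0.0301). With 1 library left out, its adjusted p by edgeR reached as much as 0.396. Sema4f averaged 8.67 ± 1.70 CPM in batch 1 bleomycin and 11.2 ± 1.84 CPM in saline lungs (adjusted p = 0.317).

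In classes 5 to 7, Sema6b and Sema7a rose and Sema6a fell. Sema6b, a transmembrane ligand of A-type plexins, had 11.2, 25.1, 24.6 and 33.6 CPM in batch 1 bleomycin lungs, 29.1, 19.6, 19.6 and 16.4 CPM in batch 2 bleomycin lungs and 9.29, 8.81, 8.06, 10.1 and 6.54 CPM in saline lungs. Replicate 5 was just above the highest saline library and the other bleomycin libraries were further above it (log2 change 1.47, SE 0.25, adjusted p = 0.00052). Sema7a, a ligand of plexin C1 and of beta 1 integrins known from mouse studies of TGF-beta-driven lung fibrosis, had 64.6, 109, 98.99 and 102 CPM in batch 1 bleomycin lungs, 106, 84.8, 65.3 and 65.0 CPM in batch 2 bleomycin lungs and 35.5, 62.7, 61.7, 65.5 and 48.2 CPM in saline lungs. Replicate 5 lay within the saline range, as did replicates 3 and 4 of batch 2, and the fit gave log2 change 0.78, SE 0.21, adjusted p = 0.0116 in batch 1 and 0.55 (SE 0.21, adjusted p = 0.063) in batch 2. Sema6a, which binds plexins A2 and A4, had 135, 94.0, 87.5 and 85.7 CPM in batch 1 bleomycin lungs, 94.0, 73.0, 96.8 and 111 CPM in batch 2 bleomycin lungs and 144, 108, 158, 124 and 139.8 CPM in saline lungs. Replicate 5 overlapped with saline and the other 3 batch 1 bleomycin libraries lay below it (log2 change -0.43, SE 0.15, adjusted p = 0.0428). The Sema6a call was lost without bleomycin replicate 6 (0.109), bleomycin replicate 7 (0.122), bleomycin replicate 8 (0.1), bleomycin replicate 1 (0.0552), saline replicate 1 (0.0808), saline replicate 3 (0.0943) or saline replicate 5 (0.0771), and with no filter on low counts (0.0625), adjusted p in brackets.

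Sema6d, a ligand of plexin A1, averaged 105 ± 18.2 CPM in batch 1 bleomycin, 92.5 ± 7.61 CPM in batch 2 bleomycin and 128 ± 12.8 CPM in saline lungs. By edgeR it missed the threshold in batch 1 (adjusted p = 0.0606). It passed as lower by DESeq2 (0.0354), by limma-voom (0.0404), with DESeq2's size factors (0.0415), among protein-coding genes (0.0347) and on the deposited normalized values (0.0395), and by edgeR without bleomycin replicate 5 (0.013) or saline replicate 5 (0.0311). In batch 2 it was lower, with a change of -0.47 (SE 0.12, adjusted p = 0.00605). Sema5a, which carries thrombospondin repeats, averaged 84.5 ± 14.9 CPM in batch 1 bleomycin and 77.9 ± 8.01 CPM in saline lungs. Sema6c (3.19 ± 1.37 CPM in batch 1 bleomycin and 4.95 ± 1.44 CPM in saline lungs) passed when bleomycin replicate 5 was left out and no other single library (adjusted p = 0.0374), and Sema5b stayed under 2 CPM in every library.

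Among the plexins, the receptors of the semaphorins, Plxnb2, Plxnc1 and Plxnd1 rose and Plxna2 fell. Plxnd1, an endothelial receptor of Sema3e, had 170.2, 172, 175 and 184 CPM in batch 1 bleomycin lungs, 198, 161, 174 and 191 CPM in batch 2 bleomycin lungs and 90.2, 87.7, 86.0, 72.6 and 99.8 CPM in saline lungs. Its level roughly doubled, with tight groups that did not overlap (log2 change 1.01, SE 0.09, adjusted p = 2.21e-06; batch 2 log2 change 1.05, SE 0.09, adjusted p = 2.12e-06). Its ligand Sema3e, as given above, fell in batch 1 and did not pass in batch 2. Plxnc1, the receptor of Sema7a, had 51.7, 48.5, 65.7 and 50.0 CPM in batch 1 bleomycin lungs, 61.8, 57.2, 48.6 and 59.5 CPM in batch 2 bleomycin lungs and 32.1, 30.0, 34.9, 23.9 and 36.5 CPM in saline lungs. All bleomycin libraries were above all saline libraries (log2 change 0.78, SE 0.13, adjusted p = 0.000321).

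Plxnb2, a receptor of Sema4c and Sema4d found on epithelial and myeloid cells, had 238, 264, 269.6 and 358 CPM in batch 1 bleomycin lungs, 359, 366, 384 and 339 CPM in batch 2 bleomycin lungs and 197, 186, 209, 189.8 and 196 CPM in saline lungs. The groups did not overlap, and batch 2 lay higher than most of batch 1 (log2 change 0.53, SE 0.10, adjusted p = 0.00117; batch 2 log2 change 0.89, SE 0.10, adjusted p = 1.93e-05). Plxna2, a receptor of Sema6a, had 114, 103, 122 and 104 CPM in batch 1 bleomycin lungs, 99.8, 116, 124 and 90.5 CPM in batch 2 bleomycin lungs and 125, 202, 212, 206 and 193 CPM in saline lungs. Saline replicate 1 stood near the bleomycin values and the other saline libraries far above them (log2 change -0.76, SE 0.14, adjusted p = 0.000746). The 3 other A plexins were not called by edgeR. Plxna1 averaged 279.6 ± 15.4 CPM in batch 1 bleomycin, 342 ± 14.9 CPM in batch 2 bleomycin and 316 ± 28.1 CPM in saline lungs, with an adjusted p of 0.124 in batch 1. It passed as lower by DESeq2 (0.0189), with DESeq2's size factors (0.0488), among protein-coding genes (0.0325), on the deposited normalized values (0.0488), and by edgeR without bleomycin replicate 8 (0.0381) or saline replicate 2 (0.0206). A non-coding gene, Gm26811, overlaps 10.7% of the exon length of Plxna1 on the opposite strand, at 0.75 ± 0.21 CPM in batch 1 bleomycin and 0.98 ± 0.54 CPM in saline lungs. Plxna4 averaged 75.2 ± 11.5 CPM in batch 1 bleomycin and 85.9 ± 7.86 CPM in saline lungs, and it passed as lower without bleomycin replicate 5 (0.0357). Plxna3 averaged 8.39 ± 0.516 CPM in batch 1 bleomycin and 7.71 ± 1.00 CPM in saline lungs. Of the B plexins, Plxnb1, a receptor of Sema4d, averaged 118 ± 14.9 CPM in batch 1 bleomycin and 143 ± 10.1 CPM in saline lungs (adjusted p = 0.16), and it passed as lower with only the groups compared (0.0386). Plxnb3 averaged 1.56 ± 0.982 CPM in batch 1 bleomycin and 1.56 ± 0.394 CPM in saline lungs. The antisense RNA Plxna4os1 averaged 1.40 ± 0.861 CPM in batch 1 bleomycin and 1.29 ± 0.535 CPM in saline lungs and was not called.

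The neuropilins, co-receptors of class 3 semaphorins, are not taken by the symbol rule. Nrp2, which was called, had 163, 221, 232 and 231 CPM in batch 1 bleomycin lungs, 273, 187, 207 and 236 CPM in batch 2 bleomycin lungs and 133, 124, 119, 125 and 105 CPM in saline lungs, all bleomycin libraries being above all saline libraries (log2 change 0.80, SE 0.12, adjusted p = 0.000169). Nrp1, which was not called, had 319, 262, 269.9 and 278 CPM in batch 1 bleomycin lungs, 258, 259.6, 307 and 282 CPM in batch 2 bleomycin lungs and 294, 262, 304, 261 and 256 CPM in saline lungs, with wide overlap (log2 change 0.04, SE 0.09, adjusted p = 0.801). The change of Nrp2 was not tested against that of Nrp1.

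**Figure D3:**
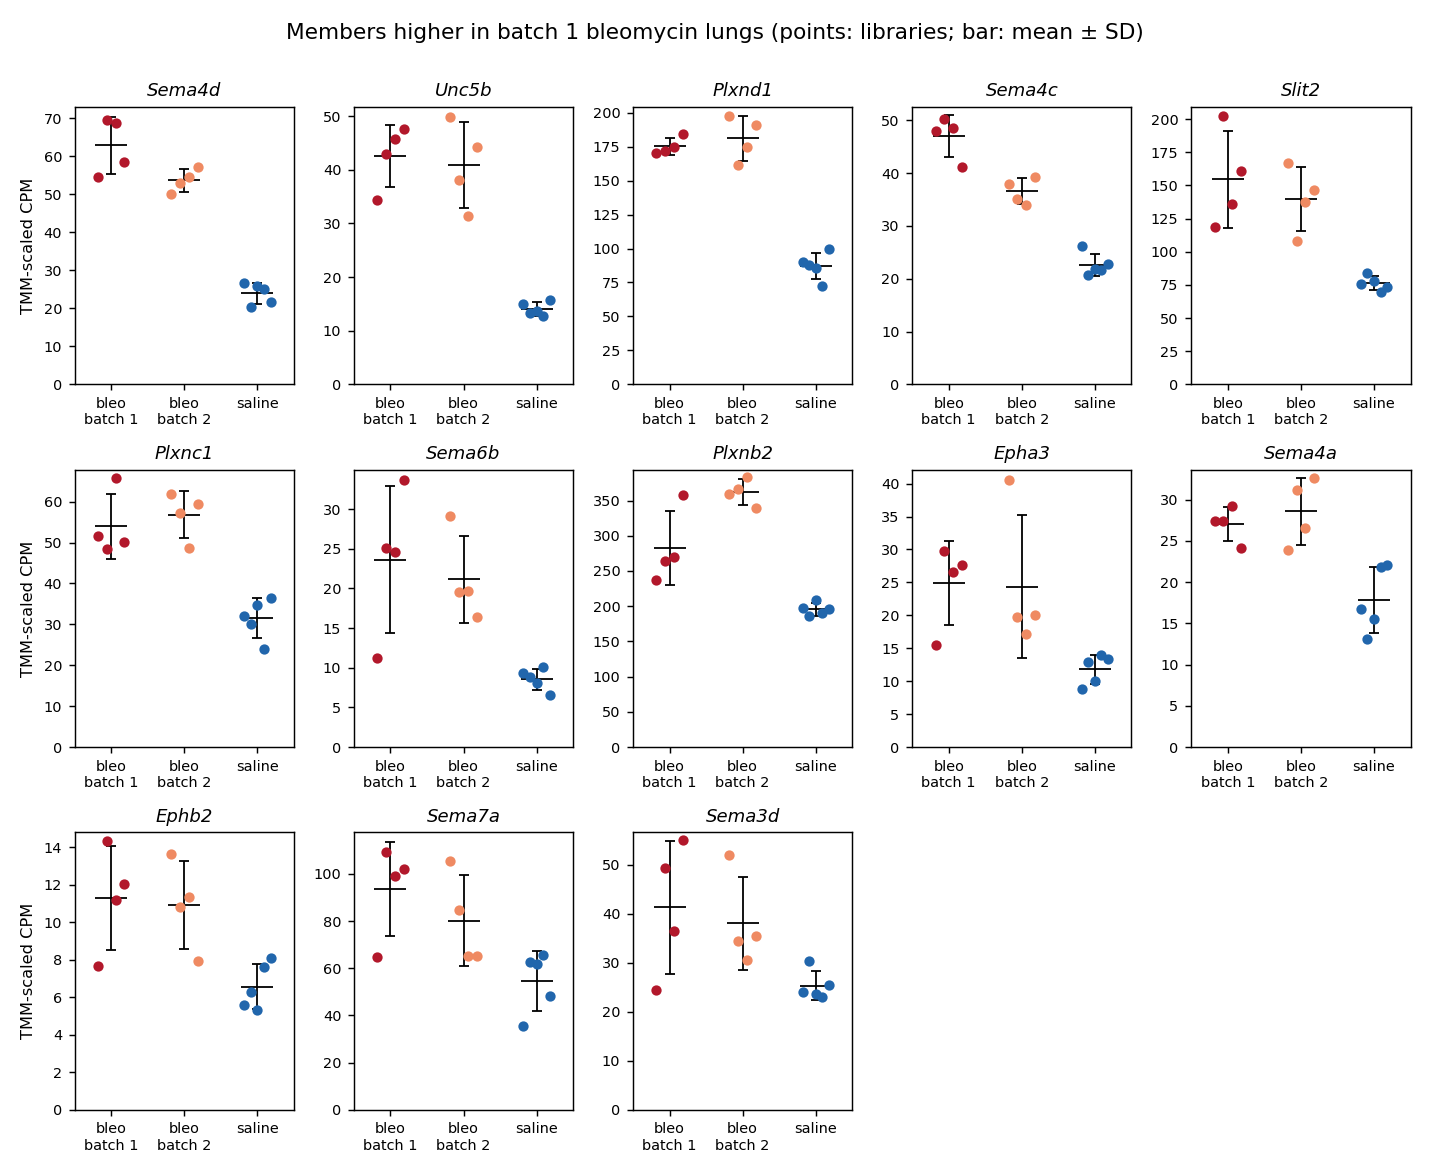
Level of the 13 members called higher in batch 1 with a mean of at least 5 CPM, in TMM-scaled CPM, 1 point per library, with the mean and SD of each group (4 batch 1 bleomycin, 4 batch 2 bleomycin, 5 saline). Sema4d, Unc5b, Plxnd1 and Sema4c show bleomycin points far above saline, while in Sema7a and Sema3d the lowest bleomycin point lies among the saline points.

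Of the 8 ephrins, Efna1, Efna3, Efnb1 and Efnb2 fell and 0 rose by edgeR. At an unadjusted p under 0.05 by edgeR 2 ephrins were higher and 4 lower, DESeq2 called 0 higher and 4 lower, and limma-voom called 2 higher (Efna4 and Efna5) and 4 lower. Efnb2, the arterial endothelial ligand of Ephb4, had 162, 108, 149 and 89.5 CPM in batch 1 bleomycin lungs, 122, 102, 108 and 94.5 CPM in batch 2 bleomycin lungs and 179, 196, 195, 161 and 192 CPM in saline lungs. Bleomycin replicate 5 was just above the lowest saline library, and the other bleomycin libraries of both sets were below saline (log2 change -0.54, SE 0.15, adjusted p = 0.0105; batch 2 log2 change -0.79, SE 0.15, adjusted p = 0.000974). Efnb1 had 49.2, 46.5, 51.0 and 39.4 CPM in batch 1 bleomycin lungs, 56.3, 48.1, 45.0 and 46.6 CPM in batch 2 bleomycin lungs and 51.0, 74.6, 73.5, 61.4 and 74.2 CPM in saline lungs. The batch 1 groups almost met at saline replicate 1, the lowest saline library, which batch 2 replicate 1 exceeded (log2 change -0.52, SE 0.12, adjusted p = 0.00438).

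Efna1, the main ligand of Epha2, had 13.3, 15.0, 16.1 and 14.4 CPM in batch 1 bleomycin lungs, 25.6, 21.0, 22.1 and 25.8 CPM in batch 2 bleomycin lungs and 25.8, 20.8, 25.4, 23.0 and 19.8 CPM in saline lungs. Batch 1 bleomycin lungs were all below saline (log2 change -0.65, SE 0.12, adjusted p = 0.00106), but the batch 2 lungs lay in the saline range, with a change of 0.04 (SE 0.12, adjusted p = 0.863). Between both bleomycin sets Efna1 was higher in batch 2 by 0.68 (SE 0.13, adjusted p = 0.0131). That difference was short of the threshold without bleomycin replicate 4 (adjusted p = 0.0579). Efna3 was low and uneven: 0.659, 0.486, 1.10 and 1.30 CPM in batch 1 bleomycin lungs, 0.664, 1.84, 1.01 and 0.879 CPM in batch 2 bleomycin lungs and 2.98, 0.696, 1.82, 6.72 and 7.94 CPM in saline lungs. Saline replicate 2 lay within the bleomycin range and saline replicates 4 and 5 far above it (log2 change -2.18, SE 0.59, adjusted p = 0.0102). The non-coding Gm15998 overlaps 14.1% of its exon length on the opposite strand, at 0.96 ± 1.09 CPM in batch 1 bleomycin and 2.17 ± 0.62 CPM in saline lungs.

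The other 4 ephrins were not called in batch 1. Efna4 averaged 1.91 ± 0.375 CPM in batch 1 bleomycin, 2.56 ± 1.04 CPM in batch 2 bleomycin and 0.958 ± 0.438 CPM in saline lungs, and it passed as higher without saline replicate 4 (0.046). The antisense gene 4731419I09Rik overlaps 10.5% of its exon length, at 2.48 ± 1.31 CPM in batch 1 bleomycin and 1.59 ± 0.536 CPM in saline lungs. In batch 2 the change of Efna4 was 1.41 (SE 0.42, adjusted p = 0.0203). Efna5 averaged 19.5 ± 3.52 CPM in batch 1 bleomycin and 14.3 ± 2.27 CPM in saline lungs (adjusted p = 0.0769), and it passed as higher without bleomycin replicate 1 (0.0457). Efna2 averaged 1.93 ± 1.25 CPM in batch 1 bleomycin and 2.67 ± 0.353 CPM in saline lungs, and Efnb3 2.62 ± 3.76 CPM in batch 1 bleomycin and 1.13 ± 0.422 CPM in saline lungs. The Efnb3 mean rested on replicate 5 (8.24 CPM), and without it batch 1 bleomycin averaged 0.741 CPM, below saline (log2 change -0.62, adjusted p = 0.448).

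Eph receptors moved both ways, with Epha3, Ephb1 and Ephb2 higher and Epha1 and Ephb6 lower among 11. Ephb1, a receptor of ephrin-B ligands, had 2.72, 4.79, 3.31 and 3.78 CPM in batch 1 bleomycin lungs, 3.65, 2.04, 3.38 and 5.27 CPM in batch 2 bleomycin lungs and 1.11, 1.16, 0.876, 1.26 and 1.03 CPM in saline lungs. The level was low, yet every bleomycin library exceeded every saline library (log2 change 1.75, SE 0.32, adjusted p = 0.000651; batch 2 log2 change 1.72, SE 0.33, adjusted p = 0.00107). Ephb2 had 7.66, 14.3, 11.2 and 12.0 CPM in batch 1 bleomycin lungs, 13.6, 10.8, 11.3 and 7.91 CPM in batch 2 bleomycin lungs and 5.58, 6.26, 5.33, 7.61 and 8.09 CPM in saline lungs. Replicate 5 lay in the saline range and the rest of batch 1 above it (log2 change 0.79, SE 0.21, adjusted p = 0.0101). Epha3, known from mesenchymal and vascular stroma, had 15.6, 29.8, 26.5 and 27.7 CPM in batch 1 bleomycin lungs, 40.5, 19.7, 17.2 and 20.1 CPM in batch 2 bleomycin lungs and 8.78, 12.9, 10.1, 13.9 and 13.3 CPM in saline lungs. Batch 1 bleomycin was above saline throughout, narrowly in replicate 5, and replicate 1 of batch 2 stood far above its set (log2 change 1.08, SE 0.25, adjusted p = 0.00464).

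Epha1, an epithelial Eph receptor, had 7.75, 9.24, 6.22 and 7.72 CPM in batch 1 bleomycin lungs, 5.31, 8.88, 12.3 and 10.8 CPM in batch 2 bleomycin lungs and 17.2, 13.7, 15.2, 20.4 and 19.4 CPM in saline lungs. All bleomycin libraries lay below all saline libraries (log2 change -1.15, SE 0.21, adjusted p = 0.00076; batch 2 log2 change -0.87, SE 0.22, adjusted p = 0.00671). Zyx, which encodes the adhesion protein zyxin, overlaps 6.01% of the exon length of Epha1 on the opposite strand. Zyx averaged 159 ± 22.9 CPM in batch 1 bleomycin and 131 ± 5.28 CPM in saline lungs, higher by a log2 change of 0.28 (adjusted p = 0.0483). Ephb6, a receptor without kinase activity, had 4.33, 4.10, 3.35 and 5.77 CPM in batch 1 bleomycin lungs, 4.48, 8.47, 7.44 and 7.03 CPM in batch 2 bleomycin lungs and 8.10, 6.61, 4.38, 7.67 and 10.3 CPM in saline lungs. Its groups overlapped, saline replicate 3 being as low as the bleomycin libraries (log2 change -0.75, SE 0.26, adjusted p = 0.0379). In batch 2 the change of Ephb6 was -0.10 (SE 0.26, adjusted p = 0.811), and it was not called. The Ephb6 call was lost without bleomycin replicate 5 (0.0623), bleomycin replicate 6 (0.0872), bleomycin replicate 7 (0.11), bleomycin replicate 4 (0.0515), saline replicate 1 (0.0721), saline replicate 4 (0.0505) or saline replicate 5 (0.1), and with no filter on low counts (0.0603), adjusted p in brackets.

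The other 6 Eph receptors were not called in batch 1 by edgeR. Ephb4, the venous partner of Efnb2, averaged 109 ± 12.5 CPM in batch 1 bleomycin and 107 ± 6.20 CPM in saline lungs (log2 change 0.02, SE 0.09, adjusted p = 0.881). Epha2, the main receptor of Efna1 on epithelium, averaged 72.9 ± 12.0 CPM in batch 1 bleomycin and 61.8 ± 11.3 CPM in saline lungs (adjusted p = 0.189). Epha4 averaged 42.6 ± 13.8 CPM in batch 1 bleomycin, 44.2 ± 5.79 CPM in batch 2 bleomycin and 30.8 ± 4.83 CPM in saline lungs. Replicate 5 of batch 1 had 63.3 CPM. Replicates 6 to 8 had 35.8, 36.0 and 35.4 CPM, within the saline range of 24.6 to 37.5 CPM. Epha4 missed the threshold by little (adjusted p = 0.0516) and passed as higher with no filter on low counts (0.0298). It also passed without bleomycin replicate 6 (0.0453), bleomycin replicate 7 (0.0456), bleomycin replicate 1 (0.0468) or saline replicate 1 (0.0389). With 1 library left out, its adjusted p by edgeR reached as much as 0.239. Epha4 was called higher in batch 2, with a change of 0.51 (SE 0.18, adjusted p = 0.0371). All batch 2 bleomycin libraries were above all saline libraries, by a narrow gap (lowest 37.9 against 37.5 CPM). Epha7 averaged 9.10 ± 2.75 CPM in batch 1 bleomycin and 12.97 ± 1.09 CPM in saline lungs (adjusted p = 0.0588 by edgeR). Epha7 passed as lower by DESeq2 (0.0301), by limma-voom (0.024), with DESeq2's size factors (0.0447), among protein-coding genes (0.0387), on the deposited normalized values (0.0396) and by edgeR without bleomycin replicate 5 (0.0135). Ephb3 averaged 32.5 ± 6.47 CPM in batch 1 bleomycin, 46.6 ± 6.41 CPM in batch 2 bleomycin and 38.6 ± 3.01 CPM in saline lungs, and it passed as lower without bleomycin replicate 8 (0.0146). Epha5 averaged 0.795 ± 0.481 CPM in batch 1 bleomycin and 2.07 ± 1.15 CPM in saline lungs, with 1 library of the 13 at a count of 0.

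Of the Slits, secreted ligands of Robo receptors, Slit2 rose. It had 119, 202, 136 and 161 CPM in batch 1 bleomycin lungs, 167, 108, 137 and 146 CPM in batch 2 bleomycin lungs and 75.8, 83.6, 78.3, 69.8 and 73.3 CPM in saline lungs. Every bleomycin library was above every saline library, and the level about doubled (log2 change 1.02, SE 0.14, adjusted p = 7.32e-05; batch 2 log2 change 0.87, SE 0.14, adjusted p = 0.000327). Slit3 averaged 121 ± 48.1 CPM in batch 1 bleomycin, 119.9 ± 15.8 CPM in batch 2 bleomycin and 88.7 ± 6.53 CPM in saline lungs. Replicate 8, whose labels conflict, had 192 CPM. Replicates 5 to 7 had 90.2, 110 and 92.2 CPM, against 82.3 to 97.5 CPM in saline lungs. Slit3 was not called (adjusted p = 0.0847), but it passed without bleomycin replicate 5 (0.033) or bleomycin replicate 7 (0.0423). With 1 library left out, its adjusted p by edgeR reached as much as 0.508. Slit1, a mostly neural Slit, averaged 1.01 ± 0.476 CPM in batch 1 bleomycin and 0.395 ± 0.449 CPM in saline lungs and passed as higher by limma-voom (0.0359) and without saline replicate 2 (0.0349), which held the highest saline level (0.204 CPM on average in the other saline lungs).

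Among their receptors, Robo1 fell. It had 25.3, 34.5, 29.5 and 38.3 CPM in batch 1 bleomycin lungs, 34.2, 35.4, 34.7 and 31.8 CPM in batch 2 bleomycin lungs and 41.0, 52.9, 45.5, 40.5 and 38.8 CPM in saline lungs. Bleomycin and saline values met at a narrow gap (log2 change -0.45, SE 0.13, adjusted p = 0.0125). Robo4, the endothelial Robo, averaged 39.8 ± 3.41 CPM in batch 1 bleomycin and 37.4 ± 5.33 CPM in saline lungs (log2 change 0.09, SE 0.12, adjusted p = 0.613). Robo2 averaged 57.2 ± 13.2 CPM in batch 1 bleomycin, 64.0 ± 8.86 CPM in batch 2 bleomycin and 46.8 ± 6.40 CPM in saline lungs. It was not called in batch 1 (adjusted p = 0.155), passed as higher without bleomycin replicate 8 (0.0332), and had a change of 0.45 (SE 0.15, adjusted p = 0.0342) in batch 2.

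Of the netrins, Ntn4 fell. Ntn4, a laminin-related protein of basement membranes, had 77.4, 66.5, 72.5 and 65.7 CPM in batch 1 bleomycin lungs, 64.4, 73.0, 84.0 and 77.8 CPM in batch 2 bleomycin lungs and 141, 132, 132, 114 and 99.2 CPM in saline lungs. Bleomycin lungs of both sets lay below all saline lungs (log2 change -0.81, SE 0.11, adjusted p = 5.96e-05; batch 2 log2 change -0.72, SE 0.11, adjusted p = 0.000193). Ntn1, the secreted ligand of Unc5 receptors and of Dcc, averaged 80.4 ± 6.39 CPM in batch 1 bleomycin, 94.1 ± 11.2 CPM in batch 2 bleomycin and 75.6 ± 4.10 CPM in saline lungs, with log2 change 0.09, SE 0.09, adjusted p = 0.499 in batch 1 and 0.32 (SE 0.09, adjusted p = 0.0173) in batch 2. Ntn3 averaged 3.26 ± 0.622 CPM in batch 1 bleomycin and 3.39 ± 0.713 CPM in saline lungs, and part of it overlaps Tbc1d24 on the same strand (1.74% of its exon length).

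Unc5b, a netrin receptor of endothelial and other cells, rose to about 3 times the saline level. It had 34.4, 42.9, 45.7 and 47.5 CPM in batch 1 bleomycin lungs, 49.8, 38.1, 31.4 and 44.2 CPM in batch 2 bleomycin lungs and 15.0, 13.2, 13.6, 12.8 and 15.8 CPM in saline lungs. Bleomycin and saline lungs were far apart and no library of either bleomycin set came near saline (log2 change 1.60, SE 0.14, adjusted p = 1.53e-06; batch 2 log2 change 1.53, SE 0.14, adjusted p = 2.74e-06). Unc5d fell at a very low level, averaging 0.703 ± 0.699 CPM in batch 1 bleomycin, 0.436 ± 0.150 CPM in batch 2 bleomycin and 2.44 ± 0.724 CPM in saline lungs (log2 change -1.79, SE 0.55, adjusted p = 0.0213). It rested on 4 to 42 counts in each batch 1 bleomycin and 18 to 102 counts in each saline library, and the call was lost without bleomycin replicate 6 (0.0628), bleomycin replicate 7 (0.0645) or saline replicate 3 (0.0577). Without bleomycin replicate 5 the Unc5d change was -2.73. Unc5a averaged 5.88 ± 0.833 CPM in batch 1 bleomycin and 5.34 ± 0.611 CPM in saline lungs, Unc5c 28.8 ± 6.16 CPM in batch 1 bleomycin and 26.8 ± 5.02 CPM in saline lungs and Unc5cl (0.372 CPM in batch 1 bleomycin without replicate 7) 0.594 ± 0.542 CPM in batch 1 bleomycin and 0.518 ± 0.240 CPM in saline lungs. These 3 were called by neither edgeR, DESeq2 nor limma-voom.

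**Figure D4:**
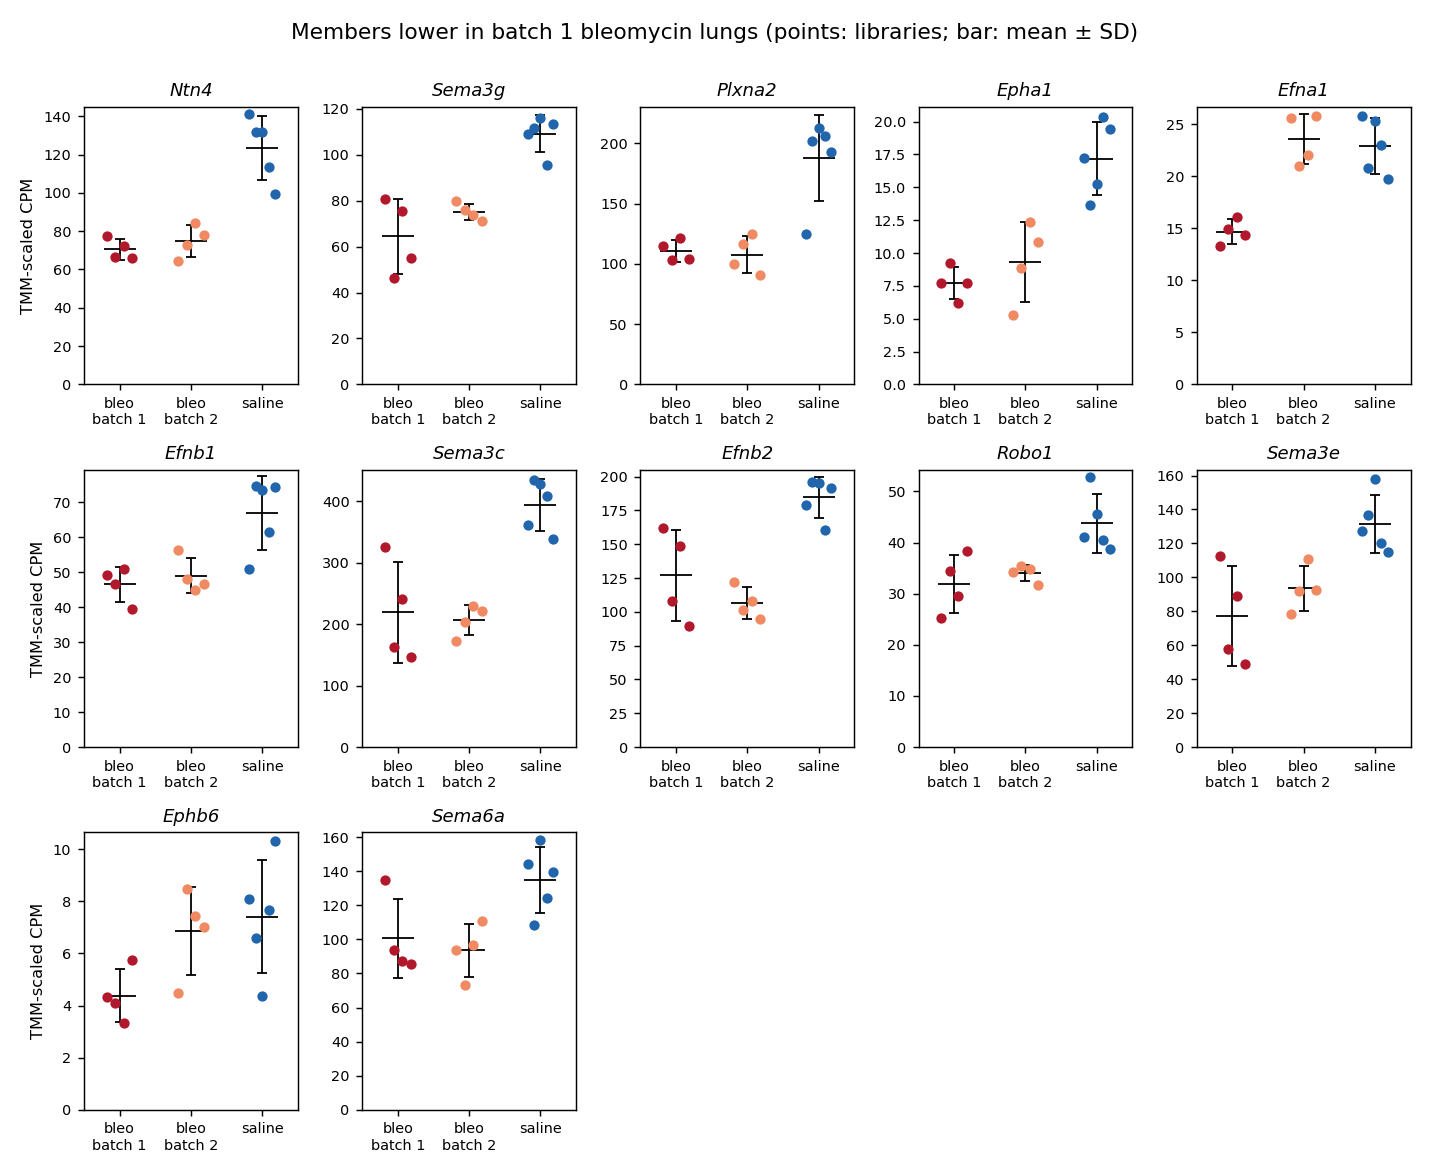
Level of the 12 members called lower in batch 1 with a mean of at least 5 CPM, in TMM-scaled CPM, 1 point per library, with the mean and SD of each group (4 batch 1 bleomycin, 4 batch 2 bleomycin, 5 saline). In Ntn4, Sema3g and Epha1 all bleomycin points lie below all saline points, while in Efna1 the batch 2 points lie at the saline level.

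In batch 2, 17 members were higher and 12 lower than saline (28.9% of all tested genes passed in either direction). The saline libraries are shared with the batch 1 comparison, so the 2 comparisons are not independent. Without bleomycin replicate 1, 11 members were higher in batch 2. Set directly against each other, the bleomycin sets differed in 1 member, Efna1, and 1.68% of all tested genes passed. By edgeR 8 members were higher and 3 lower in batch 2 at an unadjusted p under 0.05. DESeq2 called 5 higher in batch 2 than in batch 1 (Efna1, Ephb3, Plxna1, Plxnb2 and Sema3b), and limma-voom called Efna1 alone. Without bleomycin replicate 8, edgeR called 4 members higher and 1 lower in batch 2 than in batch 1, without replicate 1 or replicate 5 it called 2 higher, and without replicate 4 it called 0.

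The batch 1 bleomycin libraries were not alike. Replicate 5 was the closest to the saline mean in 19 of the 29 called members (65.5%), and in 47.3% of all 6319 called genes. It also held the lowest batch 1 bleomycin level of Col1a1 (928 CPM, against 2313 to 3982 CPM in the others) and of Fn1 (1714 CPM, against 3820 to 8202 CPM), which encodes fibronectin. Without replicate 5, 18 members fell in place of 15. On the other side, Sema4b and Slit3 then passed as higher as well, and every member called higher kept its call.

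Other genes of these pathways were listed by role, and 88 of 92 were tested. Of these, 35 rose and 14 fell (55.7% called, beside 30.9% of all tested genes and 37.0% of those with a mean of at least 5 CPM). The lists were chosen with earlier results of these data known, so their share called is a description only. Of all tested genes 17.5% were called higher and 13.4% lower, which is the share to read each list's counts against. Among co-receptors and other receptors 4 of 12 rose and 2 fell. Nrcam, a cell adhesion partner of neuropilins, rose by 2.40 ± 0.15 on the log2 scale (SE). Cd72, the B cell receptor for Sema4d, rose by 2.53 ± 0.21, to 14.7 ± 2.94 CPM in batch 1 bleomycin, against 2.54 ± 0.510 CPM in saline lungs. Among other guidance ligands 2 of 10 rose and 3 fell, with Cxcl12, a chemokine, at 0.98 ± 0.13, Rgmb, a ligand of neogenin, at -0.81 ± 0.11 and Vegfa, the vascular growth factor, at -0.89 ± 0.16.

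Of 19 genes that carry semaphorin signals 6 rose and 4 fell. Dpysl3, a collapsin response mediator, changed by 0.87 ± 0.12, its relative Dpysl5 by -1.88 ± 0.29, and Mical1, an actin-oxidising enzyme downstream of plexins, by 0.69 ± 0.12. Of 20 genes on the Eph side 7 rose and 4 fell, among them Vav2 (0.91 ± 0.11), the scaffold Sdcbp (0.70 ± 0.10) and the adaptor Grb10 (1.01 ± 0.15). On the Slit and netrin side 10 of 19 rose and 1 fell by edgeR, while DESeq2 called 6 higher and 2 lower. Those named are the actin regulators Vasp (0.78 ± 0.10) and Evl (1.11 ± 0.16) and the Robo partner Srgap3 (1.08 ± 0.15). Of 8 proteases that cleave guidance proteins 6 rose, among them Mmp2 (2.06 ± 0.14), Adam17 (0.88 ± 0.10) and Mmp14 (2.66 ± 0.26), and the list's median change was 0.73. In that list 0 fell by edgeR, DESeq2 or limma-voom, nor at an unadjusted p under 0.05 by edgeR.

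Markers of several cell types moved in the same libraries. The summed level of 12 capillary endothelial markers, 6 of which fell and 2 of which rose, was 2886 to 3541 CPM in batch 1 bleomycin, 3166 to 3554 CPM in batch 2 bleomycin and 4597 to 5799.7 CPM in saline lungs. Epas1 made up the largest part of these sums. It averaged 1866 ± 178 CPM in batch 1 bleomycin, 1940 ± 159 CPM in batch 2 bleomycin and 3514 ± 360 CPM in saline lungs. Cldn5, Cdh5, Plvap and Kit were not called. The 12 monocyte and macrophage markers, 10 of which rose, summed to 2182.2 to 2509 CPM in batch 1 bleomycin, 2645 to 3113 CPM in batch 2 bleomycin and 1553 to 1925 CPM in saline lungs. Their median log2 change in batch 1 was 1.79, more than the sums rose, since a sum weighs each marker by its abundance. The 10 B and T cell markers, 7 of which rose, summed to 81.8 to 106 CPM in batch 1 bleomycin, 63.6 to 113 CPM in batch 2 bleomycin and 21.998 to 50.1 CPM in saline lungs. The 10 fibroblast and matrix markers (6 rose, 2 fell) summed to 3322 to 8641 CPM in batch 1 bleomycin, 4588 to 8922 CPM in batch 2 bleomycin and 1641 to 1993 CPM in saline lungs. The collagen genes Col1a1 and Col3a1 made up a large part of the bleomycin sums. Col1a1 averaged 2593 ± 1302 CPM in batch 1 bleomycin and 276 ± 41.1 CPM in saline lungs. Col3a1 averaged 2300 ± 841 CPM in batch 1 bleomycin and 360 ± 58.2 CPM in saline lungs. Pdgfra overlapped between the groups, at 316 ± 83.0 CPM in batch 1 bleomycin and 279 ± 44.2 CPM in saline lungs.

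Epithelial markers were lower in batch 1. The 10 alveolar type 1 markers (1 rose, 5 fell) summed to 1613 to 3019.8 CPM in batch 1 bleomycin, 2414 to 3268 CPM in batch 2 bleomycin and 3599 to 4442 CPM in saline lungs. The 10 type 2 markers (5 fell) summed to 2855 to 5624 CPM in batch 1 bleomycin, 3648 to 8993 CPM in batch 2 bleomycin and 6807 to 8812 CPM in saline lungs, and the 10 ciliated and club cell markers (7 fell) to 2855 to 4052 CPM in batch 1 bleomycin, 2602 to 7447 CPM in batch 2 bleomycin and 7292 to 13685 CPM in saline lungs. Among 7 tested lymphatic endothelial markers 4 rose, and the 8 markers listed summed to 363 to 554 CPM in batch 1 bleomycin, 429.7 to 586 CPM in batch 2 bleomycin and 326 to 464 CPM in saline lungs. The gene Pdpn is in both the lymphatic and the alveolar type 1 list, so these lists are not separate. Smooth muscle and pericyte markers (1 of 10 rose, 2 fell) summed to 1001 to 1752 CPM in batch 1 bleomycin, 1039 to 1404 CPM in batch 2 bleomycin and 1511 to 1935 CPM in saline lungs. Mesothelial markers (1 of 8 rose, 2 fell) summed to 125 to 207 CPM in batch 1 bleomycin, 186 to 226 CPM in batch 2 bleomycin and 127 to 182 CPM in saline lungs. Nerve and Schwann cell markers were scarce, at 28.1 to 46.1 CPM in batch 1 bleomycin, 29.4 to 63.7 CPM in batch 2 bleomycin and 38.4 to 102 CPM in saline lungs, with 1 of 10 tested markers higher and 3 lower. Heart muscle markers were present and uneven, at 727 to 4883 CPM in batch 1 bleomycin, 130.2 to 3323 CPM in batch 2 bleomycin and 792 to 1269.5 CPM in saline lungs, and 0 of 8 were called by edgeR, DESeq2 or limma-voom (0 at an unadjusted p under 0.05 by edgeR). No listed marker was at 0 in every library.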

How the data were processed

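RNA from 13 libraries of mouse lung sections (8 bleomycin, 5 saline) was sequenced. Reads were trimmed with cutadapt 4.4, aligned to mm39 with STAR 2.7.10b and counted with featureCounts 2.0.3, per the submitters' processing notes. The authors deposited a table of counts per gene symbol, and a table of size-factor-scaled counts (signal values), for which the notes name DESeq2 1.42.1. Between 78.4% and 86.1% of counts from 1 to 10 were even, so a count is not 1 independent molecule. The strand setting is not given in the sources used here. Dividing the scaled values by 1 read's worth gave whole reads for 99.998% of values within 0.05.

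Genes passing filterByExpr over the 3 groups (20468) were scaled by TMM and tested on counts with edgeR 4.0.16's robust quasi-likelihood test in R 4.3.3, fitting all 13 libraries with a mean per group. Adjusted p-values are Benjamini-Hochberg over all tested genes, called under 0.05. The SE is the absolute log2 change divided by the root of the F statistic. CPM are TMM-scaled, and per-kilobase levels use the exon length of GENCODE M21, merged over all transcripts of a gene. The alternatives were DESeq2 1.42.0, limma 3.58.1 (voom), other scalings and filters, leaving out each library, a replicate block and moving bleomycin replicate 8 to saline. The test was also run on simulated data. Replicate numbers did not pair the batch 2 bleomycin and saline libraries, and no 2 libraries of the same group were duplicates (other pairs were not checked). The members and lists were chosen with earlier results of these data known. Each called member with a mean of at least 5 CPM was described by library. Up to 3 called genes with the lowest p were named per pathway list, as were Nrp1 and Nrp2. Antisense levels were looked up after the members' values were seen. RefSeq promoters (GRCm38.p6) were matched by symbol, and no other coordinates are given.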

Additional observations from a re-analysis of the deposited data

Results flagged for a closer look

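The 25 members called in batch 1 with a mean of at least 5 CPM were examined for a value far from the others. Of their 75 groups of 4 or 5 libraries, 3 held one, and chance flags about 1 in 20. The remaining members were not examined in this way. Epha3 was at 40.52 CPM in bleomycin batch 2 replicate 1, the next library of that set being at 20.06 CPM. Sema6a was at 135.0 CPM in bleomycin batch 1 replicate 5, with the next at 94.0 CPM. Plxna2 was at 124.8 CPM in saline replicate 1, with the next at 192.9 CPM.

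Efna1 differed between the bleomycin sets, by a log2 difference of 0.6814 (batch 2 minus batch 1; edgeR adjusted p = 0.0131). Over the alternatives its adjusted p ran from 0.000221 to 0.0904. The threshold was missed without bleomycin replicate 4 (0.0579) and with bleomycin replicate 8 moved to saline (0.0904).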

How the results depend on the processing

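Of the 29 members called in batch 1, 25 kept the call in all 13 fits that left out a library, 24 kept it in all 23 alternatives except the move of bleomycin replicate 8, and none changed sign under any alternative. The 23 include a fit on whole reads recovered from the scaled values. Those reads equal the deposited counts, so that fit could not differ from the main one. Fits without a batch 2 library kept every library of the batch 1 comparison and changed only the shared spread and the filter. Moving bleomycin replicate 8, whose labels conflict, to saline had the largest effect: 2 members were then higher, 1 lower and 645 genes called in all in batch 1, and 4, 0 and 945 in batch 2. Leaving out 1 library gave 14 to 16 members higher and 12 to 18 lower in batch 1 (5123 to 6546 genes in all), and 11 to 18 higher and 10 to 13 lower in batch 2 (4711 to 6350 genes in all).

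Batch 2 against batch 1 was the least stable comparison. There, 5 members were higher by DESeq2, 2 on the deposited normalized values, and 0 to 4 higher and 0 to 1 lower with 1 library left out. Over all genes, 343 were called by edgeR, 737 by DESeq2, 102 by limma-voom, 79 among protein-coding genes, 160 with only the groups compared, and 148 to 1093 with 1 library left out. The cause was not tested. Same-numbered libraries of batch 2 and saline did not deviate together, with correlations of -0.464 to -0.116. With the replicate block 15 members were higher and 11 lower (4641 genes in all), beside 17, 13 and 5633 in the same 8 libraries without it. Low members such as Unc5d, Efna3 and Epha5 rest on few counts.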
